A study of Mus musculus with 2 samples.

Results

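Sterol and fatty acid synthesis was followed through 31 genes that encode its enzymes and regulators, among 30165 named genes on the arrays. The members were the genes whose probes carry these symbols in the scanner files, with Sc4mol read as Msmo1, and 46 probes met that rule. All 31 had signal well above background in the untreated culture and 30 in the treated one. Bone marrow mononuclear cells, an unsorted mixture of blood-forming and immune cells flushed from the femurs of C57/Bl6J mice aged 2 to 4 months, were cultured with the herbal drug ninjin'yoeito (NYT) or left untreated as a negative control. Neither culture carried a transgene or deletion in the labels, both were collected at day 11, and both RNA samples were labelled with Cy3. The labels state neither the dose nor the number of animals, nor whether the cultures shared them. Both arrays lay on 1 slide. Each group was 1 array, so every difference below sets 1 array against another, with no replicate check, no p-value and no spread between cultures.

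Cholesterol is built from acetyl-CoA through the mevalonate pathway, which makes farnesyl diphosphate, and then through squalene and lanosterol to the finished sterol. The pathway is switched on by SREBP2, a transcription factor held in the endoplasmic reticulum by INSIG proteins while sterol is plentiful and released by cleavage when it is scarce, and many of its enzymes respond together in most cell types. Fatty acids are also built from acetyl-CoA, then elongated and desaturated under SREBP1 and LXR, and are stored as triglyceride by the DGAT enzymes. In macrophages and other leukocytes both routes supply membranes and lipid droplets.

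The promoter windows of the synthesis genes were read because SREBP factors bind sterol regulatory elements and act with the CCAAT-binding factor NF-Y and with Sp1. RefSeq windows (GRCm38.p6) that run from 250 bases before to 50 bases after a start were matched by symbol for 24 of the 31 members, in 31 windows. Both strands were searched for TCACNCCAC (sterol regulatory element), CCAAT (NF-Y), GGGCGG (Sp1) and CACGTG (E-box). These motifs can share bases, and overlaps were not removed. A window with CCAAT was found for 20 of the 24 members, in 71.0% of their windows against 37.4% of all 32851 windows. Split by role, 13 of 14 sterol enzyme genes and 4 of 7 fatty acid and triglyceride genes had one. No window was matched for Sqle, Fdps, Fdft1, Stard4, Fads1, Dgat1 and Dgat2, so the search does not cover them. Of the triglyceride members only Pparg was searched. Among all genes with a window 41.1% had one, and among further lipid genes 27 of 51. GGGCGG was in 71.0% of member windows against 35.7% of all windows, and CACGTG in 12.9% against 7.15%. By gene, GGGCGG was found for 19 of the 24 members, 37 of 51 further lipid genes and 38.2% of all genes. The sterol element consensus was in 1 member window, that of Hmgcs1, and in 1.24% of all windows. A match describes letters in the window and nothing more.

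The bases before the start are shown for 4 members, Hmgcs1 for its sterol element, Insig1 and Msmo1 because their levels were higher on the NYT array, and Fads2 because its signal was not well above background there. Capitals mark TCACNCCAC and CCAAT, or ATTGG where CCAAT lies on the opposite strand. Each reads 5′ to 3′ along the gene's own strand. Hmgcs1 lies on chromosome 13, 119690101 to 119690350 (plus strand), Insig1 on chromosome 5, 28071162 to 28071411 (plus), Msmo1 on chromosome 8, 64733579 to 64733828 (minus), and Fads2 on chromosome 19, 10101504 to 10101753 (minus), all GRCm38.p6.
Hmgcs1: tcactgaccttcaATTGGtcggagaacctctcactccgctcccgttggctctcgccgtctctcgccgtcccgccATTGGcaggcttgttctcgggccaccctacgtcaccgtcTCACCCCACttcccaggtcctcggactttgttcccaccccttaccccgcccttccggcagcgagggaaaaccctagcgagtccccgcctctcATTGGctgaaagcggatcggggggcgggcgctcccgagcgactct
Insig1: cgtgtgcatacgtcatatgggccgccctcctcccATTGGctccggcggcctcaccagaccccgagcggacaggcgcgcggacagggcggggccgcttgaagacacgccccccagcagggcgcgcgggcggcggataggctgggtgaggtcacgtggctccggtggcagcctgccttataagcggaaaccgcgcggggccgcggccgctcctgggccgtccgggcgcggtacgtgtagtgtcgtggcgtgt
Msmo1: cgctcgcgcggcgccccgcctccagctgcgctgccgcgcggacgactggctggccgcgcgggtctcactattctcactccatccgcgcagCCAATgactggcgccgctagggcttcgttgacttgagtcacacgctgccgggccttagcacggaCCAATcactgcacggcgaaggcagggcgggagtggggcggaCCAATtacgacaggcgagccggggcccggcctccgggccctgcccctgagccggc
Fads2: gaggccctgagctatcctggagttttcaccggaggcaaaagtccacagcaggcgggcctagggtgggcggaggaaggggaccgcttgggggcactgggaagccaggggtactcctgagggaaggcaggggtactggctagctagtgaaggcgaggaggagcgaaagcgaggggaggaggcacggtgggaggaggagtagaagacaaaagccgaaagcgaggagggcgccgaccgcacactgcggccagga
In these stretches CCAAT or its complement occurred with the sterol element in Hmgcs1, without it in Insig1 and Msmo1, and not at all in Fads2. These 4 are chosen examples and show no pattern over the members. Windows of members with a lower level on the NYT array, among them Fasn, Idi1, Nsdhl and Dhcr7, also held CCAAT.

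Each array was divided by the 75th percentile of its own intensities, which was 1476 for the control and 728 for the NYT culture. Levels below are multiples of that value, on a linear scale, and can be compared between the arrays for 1 probe but not between probes. Differences are log2, NYT minus control. Over 16996 genes measured on both arrays the median difference was 0.29, so a gene at 0 stood below the middle of the array. The choice of scaling moves this median, to -0.73 without scaling, -0.89 when scaled to spike-in RNA and -0.02 after loess, and every difference moves with it. Probes printed in several spots gave the only error, a median SD of a difference of 0.054 over 228 probes (0.112 over the dimmest 76 and 0.043 over the brightest 76). It covers spot noise, not cultures or hybridisations. Among the members Pparg alone was printed in several spots.

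Among the members, sterol enzyme genes had a median slightly above that of all genes, and fatty acid and triglyceride genes a median below it. As scaled here, further fatty acid genes had a median of 0.25, and further triglyceride and lipid droplet genes 0.46. The lower place thus belonged to the member genes and not to every list of these routes. Of the 30 members measured on both arrays, 4 (Insig1, Sqle, Srebf1 and Msmo1) were at least 2-fold higher on the NYT array, where 11.2% of all measured genes were. In the other direction 2 members (Dgat2 and Dgat1) were at least 2-fold lower, as were 11.0% of all measured genes. Fads2 was detected on the control array alone. The other 24 members differed by less than 2-fold. Over all 30 the median was 0.29, the same as that of all genes to 2 decimals, so the group as a whole did not stand apart on these arrays.

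**Figure D1:**
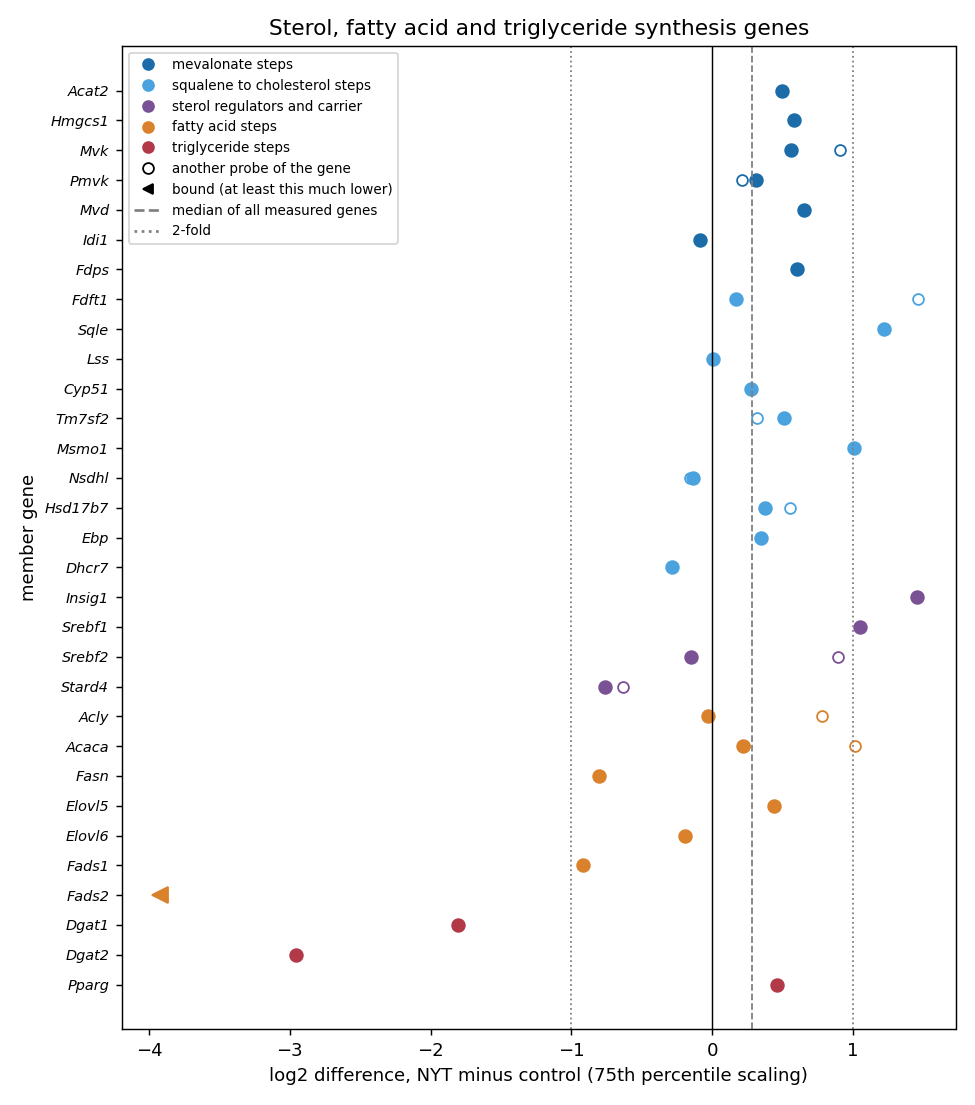
Log2 difference (NYT minus control, x axis) of each of the 31 members (y axis), coloured by role. Filled points are the brightest probe of a gene, open points its other probes well above background on both arrays, the triangle is the bound for Fads2, the dashed line is the median of all measured genes at 0.29 and dotted lines mark 2-fold. Sterol members cluster between -0.29 and 1.22, and Fads2, Dgat2 and Dgat1 lie far to the left.

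Among the 7 mevalonate genes 6 were above 0 and above the median of all genes, though below 0 without scaling and with spike-in scaling, and none reached 2-fold. The median was 0.56 (95% order-statistic interval over genes -0.09 to 0.65, which is the full range of the 7 genes). Hmgcs1, the synthase that makes HMG-CoA, had a level of 7.23 in the untreated and 10.8 in the NYT culture, a difference of 0.58. Fdps, which makes farnesyl diphosphate, went from 7.44 to 11.3, and Mvd, the last decarboxylase of the mevalonate part, from 1.19 to 1.87. These 3 were 1.49-fold, 1.52-fold and 1.57-fold higher.

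Acat2, the thiolase that joins acetyl-CoA units, had levels of 0.155 and 0.219 on the control and NYT arrays. Mvk, mevalonate kinase, had 2.49 and 3.67 by its brighter probe (0.56), and its dimmer probe differed by 0.91. Pmvk, the next kinase, differed by 0.31 and 0.21 by its probes, from a level of 3.82 to 4.73. Idi1, the isomerase that supplies farnesyl synthesis, was the exception, at 2.29 and 2.15, a difference of -0.09. Against the median of all genes, Hmgcs1, Mvk, Mvd and Fdps stayed above it under all 12 processing settings and Idi1 stayed below it under all 12. As scaled here the first 4 lay 0.27 to 0.37 above that median, and over the settings the distance ranged from 0.074 to 0.29 for Hmgcs1, 0.054 to 0.44 for Mvk, 0.15 to 0.44 for Mvd and 0.10 to 0.32 for Fdps. Settings that scale by a constant give the same distance by construction, and the authors' value table nearly repeats quantile normalization. The 12 settings are therefore not 12 separate checks, here or for the genes below.

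The 10 genes from squalene to cholesterol spread more widely, from -0.29 to 1.22, around a median of 0.31. Sqle, squalene epoxidase, an oxygen-dependent control point of the pathway, was 2.33-fold higher, with a level of 2.93 on the control and 6.82 on the NYT array. Msmo1, which removes methyl groups from lanosterol products, went from 11.1 to 22.3, 2.01-fold higher and only just past the 2-fold line. These 2 stood above the median of all genes under all 12 settings, by 0.71 to 0.93 for Sqle and 0.50 to 0.72 for Msmo1. In unscaled intensity Msmo1 was nearly equal on both arrays (16399 and 16251), and its sign turned without scaling. The probe for Sqle lies on chromosome 15 at 59162688 to 59162747 (plus strand) and that for Msmo1 on chromosome 8 at 67196982 to 67197041 (minus), on the mouse build mm9 of the file headers. Exon or untranslated annotation for mm9 was not used here.

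The remaining enzymes of this stretch differed little. Lss, which closes the ring to lanosterol, was at 0.287 and 0.288, a difference of 0.01 that is below the spot noise. Cyp51, the lanosterol demethylase, went from 0.224 to 0.271, Ebp, the sterol isomerase, from 15.1 to 19.2, and Hsd17b7, a sterol ketone reductase, from 0.207 to 0.268. Tm7sf2, a sterol reductase, was at 2.06 and 2.93, a difference of 0.51 by this probe and 0.32 by another. Nsdhl, which works on the same methyl groups as Msmo1, stood at -0.14, and Dhcr7, which acts at the end of the pathway, at -0.29, with levels of 0.648 and 0.531. Dhcr7, Nsdhl and Lss were below the median of all genes under all 11 settings that measured them.

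Fdft1, which makes squalene, depended on the probe. Its brighter probe gave levels of 0.865 and 0.972 (0.17), while the dimmer probe gave 0.0643 and 0.177 (1.46). Probes differed by more than 0.5 for 4 of the 10 members with several measured probes, the others of these being Srebf2, Acly and Acaca. For the remaining 6 the largest gap was 0.35.

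**Figure D2:**
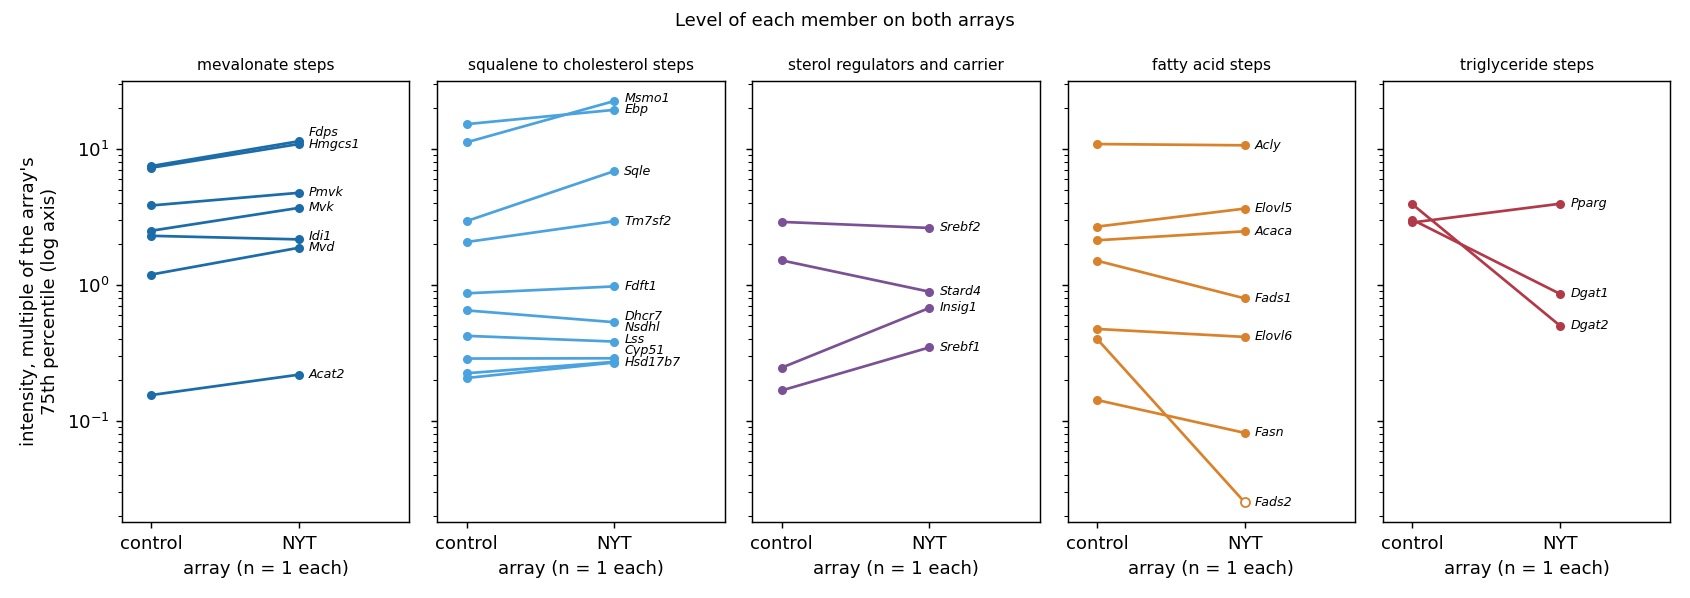
Level of each member on the control and NYT arrays (n = 1 each), as a multiple of that array's 75th percentile intensity on a log axis, in 1 panel per role. Lines join the same probe, the open point marks Fads2 where it was not well above background, and heights of different genes cannot be compared. Sqle climbs from 2.93 to 6.82, while Dgat2 drops from 3.90 to 0.501 and Fads2 from 0.400 to 0.0253.

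Among the regulators, Insig1 showed the highest difference of all members. It encodes the anchor that retains SREBP in the endoplasmic reticulum and is itself a sterol-responsive target. Its level was 0.246 on the control and 0.675 on the NYT array, 2.74-fold higher (1.46), and 96.1% of measured genes had a difference at or below it. Unscaled intensities were 363 and 491, so the NYT array was also the brighter for this probe before scaling. Its probe maps to mm9 chromosome 5, 28404246 to 28404305, on the plus strand.

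Srebf1, whose product drives fatty acid synthesis genes, was 2.07-fold higher, from 0.167 to 0.347, by its single probe. Unscaled it was almost equal, at 247 and 252. Srebf2, the main activator of sterol synthesis, went from 2.89 to 2.61 by its brighter probe (-0.15) but from 0.549 to 1.02 by a dimmer probe (0.90), so its direction is not settled. Stard4, a carrier of cholesterol between membranes, was lower by both probes (-0.76 and -0.63), with levels of 1.51 and 0.889, without reaching 2-fold. Insig1 and Srebf1 stayed above the median of all genes, and Stard4 below it, under every setting that measured them.

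The 6 measured fatty acid enzymes had differences of both signs, 2 above 0 and 4 below. Acly, which supplies cytosolic acetyl-CoA, was at 10.8 and 10.6 by its brighter probe (-0.03, below the spot noise), and at 0.78 by a dim one. Acaca, which makes malonyl-CoA, went from 2.12 to 2.47 (0.22). An Acaca probe that the headers place on chromosome 12 rather than 11 gave 0.23, a dim probe gave 1.02, and the fourth was below the detection flag on both arrays. Fasn, fatty acid synthase, was lower, from 0.142 to 0.0817, a difference of -0.80 that shrank to -0.15 with normexp background correction.

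Of the elongases, Elovl5, which lengthens polyunsaturated chains, went from 2.67 to 3.62 (0.44) and Elovl6, which lengthens saturated chains, from 0.473 to 0.414 (-0.19). Both desaturases of polyunsaturated fatty acids were lower. Fads1 was at 1.5 on the control and 0.795 on the NYT array, a difference of -0.92 that falls just short of 2-fold. Fads2, the first desaturase of that route, was well above background on the control array by both probes (0.400 and 0.0780) and by neither on the NYT array. It was at least 15.2-fold lower, a bound that sets its control signal against the lowest signal called above background on the NYT array or its own, whichever is higher. With normexp background correction that bound shrank to 3.66-fold, while it lay between 14.8-fold and 34.4-fold under the other scalings. That brighter Fads2 probe maps to mm9 chromosome 19, 10137760 to 10137819, on the minus strand.

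The triglyceride members held the 2 lowest measured differences. Dgat2, an acyltransferase that completes triglyceride, was 7.77-fold lower, with a level of 3.90 on the control and 0.501 on the NYT array (-2.96). Dgat1, the unrelated enzyme for the same reaction, was 3.50-fold lower, from 3.0 to 0.858 (-1.81). They remained at least 2-fold lower under all 11 alternative settings, the values nearest to 0 being -2.81 for Dgat2 and -1.71 for Dgat1. Their probes map to mm9 chromosome 7, 106302215 to 106302274, and chromosome 15, 76333128 to 76333274, both on the minus strand. Pparg, the nuclear receptor of fat storage, went the other way, from 2.87 to 3.93 (0.46). Its probe was printed 10 times, with 9 control and 10 NYT spots kept and spot SDs of 0.028 and 0.030 on the log2 scale, so this difference was larger than the spot noise. It still depended on the scaling, being -0.56 without scaling and -0.72 with spike-in scaling. Against the median of all genes Pparg stood at 0.17, and between -0.046 and 0.18 over the settings.

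Set against each other, the 17 sterol enzyme genes had a median of 0.38 (interval 0.17 to 0.58) and the 9 measured fatty acid and triglyceride genes -0.19 (interval -1.81 to 0.44). The medians differed by 0.57, which scaling by a constant cannot change. With Fads2 placed at its bound the second median was -0.50 and the gap 0.87. Without Dgat1, Dgat2 and Pparg the gap was 0.49. Of the sterol genes 11 of 17 lay above the median of all genes, of the others 2 of 9. The intervals overlapped, and each held the median of all genes, 0.29. They treat the genes of a list as independent draws, which genes of 1 pathway need not be. They do not cover cultures, their overlap is not a test, and no test of the gap was possible with 1 array a group. Relative to all genes the sterol median lay between -0.13 and 0.22 over the settings, so its place above the middle did not hold throughout, while the fatty acid and triglyceride median lay below all genes throughout (-1.0 to -0.38).

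**Figure D3:**
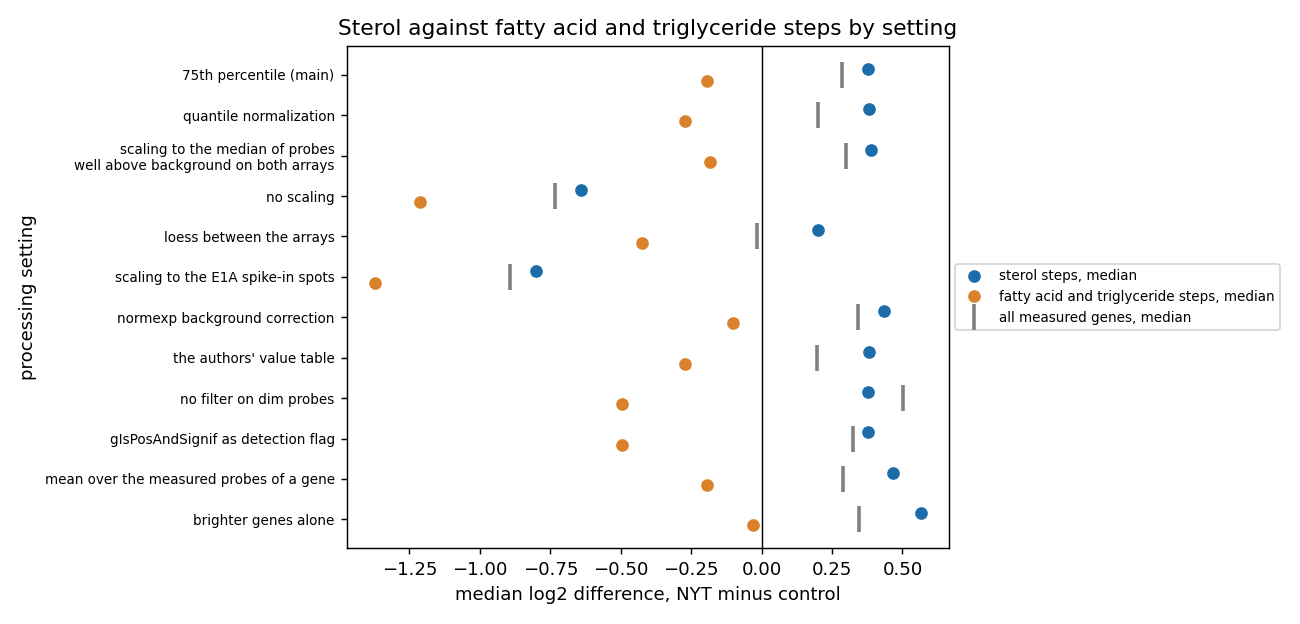
Median log2 difference (NYT minus control, x axis) of the 17 sterol genes and of the fatty acid and triglyceride genes under each processing setting (y axis), with the median of all measured genes as a grey bar. Both lists move with the scaling, and the sterol point stays to the right of the other in each setting, by 0.57 in the main one.

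The number of members past a threshold followed the processing, and so did the share of all genes. Without scaling 0 members were at least 2-fold higher and 12 lower, where 1.24% and 36.4% of all genes were. Scaled to spike-in RNA the counts were 0 and 13, against 0.977% and 44.0%, and after loess 1 and 4, against 5.59% and 13.9%. Insig1 was the member that stayed past 2-fold after loess. Normexp correction kept 4 higher and 2 lower members, against 8.76% and 8.1% of all genes.

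Quantile normalization gave 3 higher and 2 lower members (11.0% and 10.7% of all genes), as did the authors' value table (11.0% and 10.7%). Median scaling gave 4 and 2 (11.5% and 10.8%), and so did the mean over probes (11.1% and 10.7%). With no filter on dim probes there were 4 and 3 (15.8% and 11.3%), and with the other detection flag 4 and 3 (15.9% and 12.2%), Fads2 being added to the lower members in both. Among the brighter genes alone 2 members were higher and 2 lower (10.2% and 7.37%). At 1.5-fold 6 members were higher and 5 lower, against 30.4% and 16.9% of all genes, and at 3-fold 0 and 2, against 2.98% and 6.87%.

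The rest of the pathway was read from lists of 66 further lipid genes. Of 63 measured, 13 were higher and 3 lower by 2-fold or more, against 11.2% and 11.0% of all genes, with a median of 0.28. Sc5d, a late desaturase, was 2.34-fold higher, from 1.77 to 4.15, next to the higher Sqle and Msmo1. Of its log2 difference of 1.23, scaling added 1.02. Lbr, which has the same reductase activity as Tm7sf2 and also shapes the nucleus of neutrophils, was 6.34-fold lower, from 4.67 to 0.736, and its other probe was also lower (-1.85). Higher and lower genes thus stood side by side in the last steps to cholesterol.

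In the SREBP control list of 14 genes, 4 were at least 2-fold higher and none lower, against 11.2% and 11.0% of all genes. Mbtps2, the protease that makes the second SREBP cut, was 4.37-fold higher, from 0.114 to 0.497, and its other measured probe differed by 1.89. Mbtps1, the first protease, differed by 0.23 (0.86 by another probe), Scap, the SREBP escort, by 0.03, and Insig2 by 0.45. Npc2, which moves cholesterol out of lysosomes, and Soat1 and Soat2, which esterify cholesterol for storage, were 2.30-fold, 2.04-fold and 2.09-fold higher. Without scaling Npc2, Soat1 and Soat2 differed by 0.18, 0.01 and 0.04.

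Among 16 measured further fatty acid genes 4 were at least 2-fold higher and none lower, against 11.2% and 11.0% of all genes. Their median difference was 0.25, against 0.29 over all genes. Scd2, a stearoyl-CoA desaturase, was 3.45-fold higher, from 6.28 to 21.6, whereas Scd1, a related desaturase, went from 0.715 to 0.564 (-0.34). Me1, which supplies NADPH for lipid synthesis, was higher by all 3 probes (1.33 to 1.71). Slc25a1, the mitochondrial citrate carrier, and Elovl1, an elongase of very long chains, were 2.21-fold and 2.23-fold higher. Of their log2 differences of 1.15 and 1.16, scaling added 1.02. Acss2, which makes acetyl-CoA from acetate, was lower by both probes, at -0.64 and -1.07. Scd1 and Scd2 are similar in sequence, and cross-hybridisation between their probes was not tested.

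In the triglyceride and lipid droplet list 4 of 14 measured genes were at least 2-fold higher and 1 lower, against 11.2% and 11.0% of all genes. The median difference of this list was 0.46, against 0.29 over all genes. Mogat2, which acylates monoacylglycerol ahead of the DGAT step, was 5.75-fold lower, from 3.69 to 0.642, in the same direction as Dgat1 and Dgat2. Mgll, which breaks monoacylglycerol down, was 6.46-fold higher, from 7.90 to 51.0, and 2.69 to 3.0 higher on the log2 scale by its 3 measured probes. Agpat1, an early acyltransferase of glycerolipid synthesis, was 2.97-fold higher, Plin3, a droplet coat protein, 2.48-fold, and Cd36, a fatty acid receptor of macrophages, 2.01-fold. Cd36 was only just past the 2-fold line, at 1.01 on the log2 scale, while scaling added 1.02 to each difference. The enzymes of triglyceride assembly thus had differences of both signs.

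**Figure D4:**
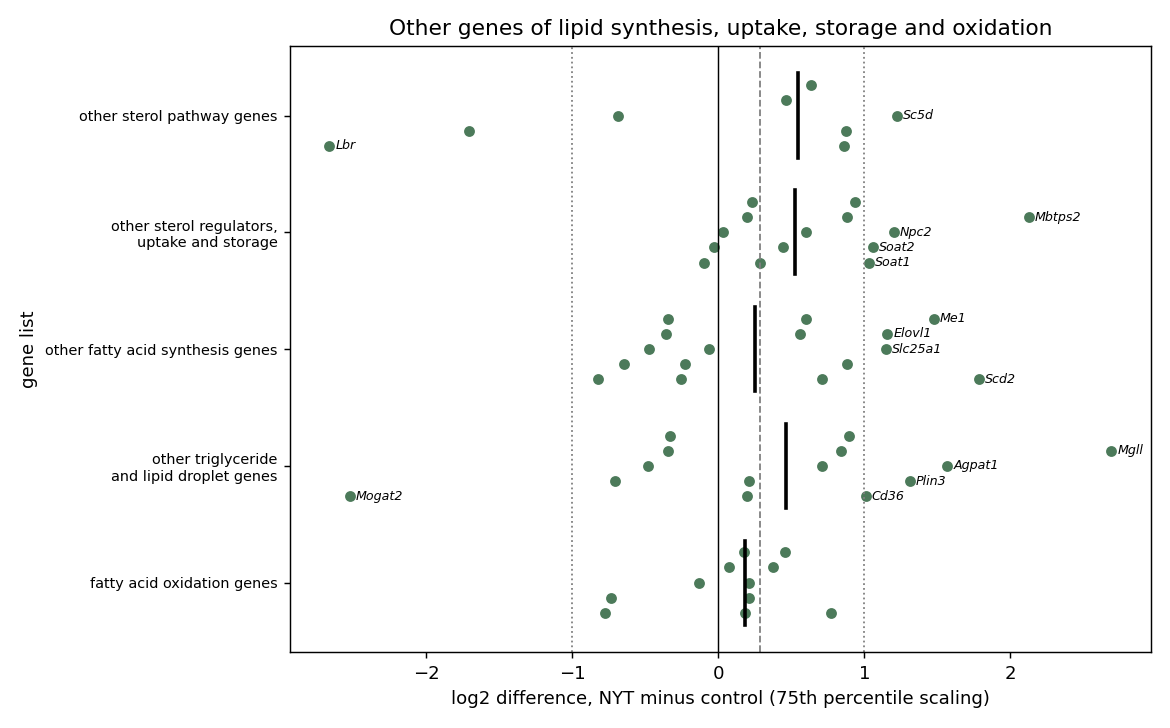
Log2 difference (NYT minus control, x axis) of 63 further lipid genes in 5 lists (y axis), each point 1 gene. Black bars are list medians, the dashed line is the median of all measured genes, dotted lines mark 2-fold, and most genes past 2-fold are named. Mgll at 2.69 and Lbr at -2.67 are the extremes.

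Markers of cell types moved between the arrays as well. They were counted at 2-fold, where 11.2% of all measured genes were higher and 11.0% lower. In bulk RNA, fewer cells of a type and less RNA per cell cannot be told apart. Neutrophil markers were lower for 7 of 8 genes, with a summed level of 669 on the control and 309 on the NYT array. Such sums weight the brightest probes most, and the median difference of these markers was -3.41. Mast cell and basophil markers were lower for 4 of 6 and lost on the NYT array for the other 2 (32.9 and 0.439). Macrophage markers went both ways, with 2 of 8 higher and 3 lower (553 and 757). Their median difference was -0.91, with 5 of 8 below 0, although their sum was larger on the NYT array. B cell markers differed by 2-fold for 1 of 6 (25.7 and 21.7). Of the T cell markers 2 of 6 were lower and 1 was lost (10.6 and 3.88), of the stromal markers 4 of 7 were lower, 1 higher and 2 lost (15.5 and 5.02), and of the erythroid markers 3 of 7 were lower and 1 higher, while the other 3 were not measured on both (9.54 and 0.978). Their part in the lower Dgat1, Dgat2, Fads2, Lbr and Mogat2 was not tested. The adipocyte markers Adipoq, Plin1, Lep, Cidec and Cfd had no signal well above background in either culture. The 3 measured on both were named after their values were seen. Fabp4, which macrophages also express, went from 25.8 to 72.8 (2.83-fold higher), Retn from 0.268 to 0.0456 (-2.55) and Lipe from 0.136 to 0.0972 (-0.48).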

How the data were processed

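Gene expression was measured on 1 one-colour array per group. The authors deposited scanner output with an intensity for each spot. Its version of Agilent Feature Extraction is 10.7.1.1 in the file headers and 9.5.1.1 in the submitters' processing notes. Per the file headers the intensity was detrended within each array, and its 75th percentile still differed between the arrays. Flags for outliers, background and saturation were deposited with them. A deposited value table of linear intensity held equal sorted values in both columns for 39073 of 39429 probes (relative tolerance 1e-06, median 72.1 in each), so it had been quantile normalized, and it served as an alternative. The labels state no other step behind it.

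Outlier spots were removed (258 on the control and 165 on the NYT array, no spot was saturated), log2 values of the spots of each probe were averaged, and the array's 75th percentile was taken off. The brightest probe detected well above background on both arrays stood for a gene (62.2% of probes were so detected for control and 57.7% for NYT). With 1 array per group, genes were called at 2-fold, and the number of arrays limits the precision. Probes were named through RefSeq accessions (GRCm38.p6) for 26761, current symbols for 3814 and synonyms for 639, and 8215 kept the file's name. Member probes followed the file's symbol. Named genes were all members, further lipid genes past 2-fold and a fixed list of partner genes that includes Scd1 and Acss2. Some of these genes are not reported here. The members, lists and alternatives were chosen with earlier results of these data known. The 11 alternatives to the main processing, 2 other fold thresholds and 1 other gene list were planned. Normexp, quantile and loess were run with limma 3.58.1 in R 4.3.3, the rest in Python 3.11.15. The gene step was tested on simulated data with 1 probe a gene, each set as detected on both arrays. The choice among probes, the background filter and the bounds were not tested in this way.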

Additional observations from a re-analysis of the deposited data

How the results depend on the processing

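No paired analysis was possible because no result came from a test, with 1 array a group, and leaving out an array was not run since it would leave a group empty. Without scaling, the sterol median was -0.64, 0 members were at least 2-fold higher and 12 lower, and 2 further lipid genes were higher and 21 lower. With spike-in scaling these were -0.80, 0 and 13, and 1 and 24. After loess, 1 member was higher and 4 lower, and 5 further genes were higher and 5 lower. Among brighter genes 2 members were higher. At 1.5-fold, 5 members were lower and 26 further genes higher and 9 lower. At 3-fold, 0 members and 3 further genes were higher. The gap between the sterol and the other median was 0.87 with no filter on dim probes and with the other detection flag, both of which add Fads2, and 0.49 to 0.66 otherwise. Msmo1 turned to -0.013 without scaling and -0.17 with spike-in scaling, and Srebf1 to -0.13 with spike-in scaling. Constant scaling shifts every gene equally, and the cause of the other changes was not tested. Of the 30 measured members, 16 changed sign without scaling, 17 with spike-in scaling, 5 after loess, 2 with the mean over probes, and 1 each with quantile normalization and the authors' value table, most of them under 2-fold as reported. Dim signal leaves Fads2 with a bound only.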

Other observations

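Fatty acid oxidation, the opposite route to the synthesis genes, showed no gene past 2-fold, where 11.2% of all measured genes were higher and 11.0% lower. All 11 listed genes were measured, with a median of 0.18 and a range from -0.78 to 0.77. Cpt1a, which admits fatty acids to mitochondria, was at 6.75 on the control and 4.06 on the NYT array (-0.73, and -0.27 by its other probe), and Slc25a20, the acylcarnitine carrier, at 0.594 and 0.346 (-0.78). Acadl, a dehydrogenase of long chains, went from 1.71 to 2.93 (0.77). These 3 were named after their values were seen, as the farthest from 0 in the list.

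For 7 of the 10 members with several measured probes, and for 14 of 19 such further lipid genes, the dimmest probe gave the higher difference. Over all 4048 such genes it did in 50.9%, with a median gap of 0.01. The median gap, dimmest minus brightest probe, was 0.26 over the members and 0.18 over the further lipid genes. These genes were counted after their values were seen.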
